A study of Mus musculus with 6 samples.

Results

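Newly made procollagen is hydroxylated, folded and trimmed before it forms fibrils, and 10 genes of that machinery were followed here in cultured mouse dermal fibroblasts. They were chosen by name: the prolyl 4-hydroxylase subunits P4ha1, P4ha2 and P4ha3, the lysyl hydroxylases Plod1, Plod2 and Plod3, the chaperone Serpinh1, the C-proteinase Bmp1 and its enhancers Pcolce and Pcolce2. All 10, of the 41126 genes in the all-gene table, had a valid estimate in every library and passed the filter on low counts.

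RNA-seq was performed on 6 libraries of ventral dermal fibroblasts from mice of postnatal day 4 on a mixed CD1, C57Bl6 background, with the cells of each animal cultured on their own. The 3 control cultures are labelled AdGFP; +/+ and the 3 gain-of-function (GOF) cultures AdCre; Ctnnb1{delta}ex3/+, a genotype in which Cre removes exon 3 of Ctnnb1 and so leaves β-catenin, the transcriptional effector of Wnt signaling, resistant to degradation. Cre or GFP was brought in by adenovirus in culture, and the promoter that drives Cre is not given in the sources used here. The comparison asks how stabilized β-catenin alters fibroblast gene expression. GOF and control cultures thus received different viruses, and an effect of the virus and one of β-catenin cannot be told apart. The labels conflict with each other or with the methods on the following points. Their treatment protocol names adCre at 366 to 500 MOI for 6 h for every culture, controls included. The methods give 366 MOI for the GFP virus, so the dose may also have differed between groups. The labels give +/+ for controls that, by the methods, carried the same Ctnnb1 allele. They give postnatal day 4 for every culture, while the methods name a range of days that starts at day 4. The sequenced RNA was taken 72 h after infection, although the study also speaks of 48 h of stabilization for these data. By the labels 4 animals were used. A first animal was the source of Control replicate 0 and GOF replicate 2, a further one of Control replicate 2 and GOF replicate 0, and the remaining cultures had an animal each.

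Collagen chains are modified while they are still unfolded in the endoplasmic reticulum. Prolyl 4-hydroxylase makes the 4-hydroxyproline that keeps the triple helix stable at body temperature, and lysyl hydroxylases make the hydroxylysine that carries sugars and takes part in the cross-links between collagen molecules in a fibril. SERPINH1, also called HSP47, binds the folded helix until it reaches the Golgi, and BMP1 then removes the C-propeptide outside the cell, a step that PCOLCE speeds up. Dermal fibroblasts are the main makers of fibrillar collagen in skin.

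The libraries held 35980831 to 42834467 fragments, and the 10 genes received 160 to 103413 fragments per library. Axin2, a feedback target of β-catenin, was 0.152 ± 0.0218 FPKM (SD, n = 3) in control and 17.5 ± 2.66 FPKM (SD, n = 3) in GOF libraries (log2 fold change 6.98, adjusted p = 4.95e-05 from edgeR). Ctnnb1 itself, read over the whole gene, had 267 ± 16.3 and 263 ± 28.8 FPKM (SD, n = 3 each), and its exon 3 was not read separately. Control replicate 0 stood somewhat apart, with a median absolute log2 difference of 0.206 and 0.232 from the other controls, against 0.0909 between those 2. Summed FPKM of 8 fibroblast markers ranged from 3436 to 4234 in control and from 3236 to 3808 in GOF libraries, a sum carried mostly by S100a4, Dcn and Vim. Their median log2 fold change was -0.75, with 1 (Vim) higher and 2 (Dcn and Fbn1) lower at an adjusted p under 0.05 in edgeR, and Dcn, the proteoglycan decorin, was at 982 to 1175 FPKM in control and 251 to 450 FPKM in GOF libraries. Keratinocyte markers summed to 0.50 to 0.672 FPKM in control and 2.91 to 6.83 FPKM in GOF libraries, of which Dsp alone passed the test, while Krt5, Krt14 and Krt1 were under 0.1 FPKM in all 6. Skeletal muscle markers summed to 23.6 to 28.3 and 139 to 173 FPKM, of which Acta1 alone passed, with Ckm, Myod1 and Myog near 0. Adipocyte markers went the other way, from 61.1 to 230 FPKM in control to 7.36 to 19.4 FPKM in GOF libraries, mostly through Lpl, and all 3 tested passed, with Lep at 0 in all 6. Endothelial markers (5.04 to 5.33 against 3.36 to 7.18 FPKM), macrophage markers (13.3 to 23.8 against 10.4 to 30.7 FPKM) and pericyte and smooth muscle markers (2367 to 3601 against 2944 to 4815 FPKM) overlapped between groups, although 1 or 2 genes of each passed. The part of any of these in the values below was not tested. In bulk RNA, fewer cells of a type and less RNA per cell cannot be told apart.

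None of the 10 genes passed the test between GOF and control at an adjusted p under 0.05 (edgeR's quasi-likelihood test, adjusted over all 15462 genes tested), beside 21.2% of all genes tested (11.1% higher and 10.2% lower in GOF). None also passed a fold change of 2, beside 12.3% of all genes tested, 6.69% higher and 5.64% lower. Serpinh1 and Bmp1, both lower in GOF, came nearest, and they alone had an unadjusted p under 0.05. DESeq2 called both, limma on log2(FPKM + 1) called Serpinh1, limma on log2(FPKM + 0.1) called neither, and limma's voom fit with a correlation within animals called both. The other 8 were called by none of these fits. Without GOF replicate 2, edgeR called 2 genes, Serpinh1 and Plod2, and without Control replicate 0 it called 0. The log2 fold changes of the 10 ran from -0.57 to 0.23 with a median of -0.20, against -0.02 over all genes tested. In FPKM, 2 of the 10 did not overlap between the groups, Serpinh1 and Bmp1, beside 39.5% of all genes tested (19.2% lower and 20.3% higher in GOF), so this share was not above the background.

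**Figure D1:**
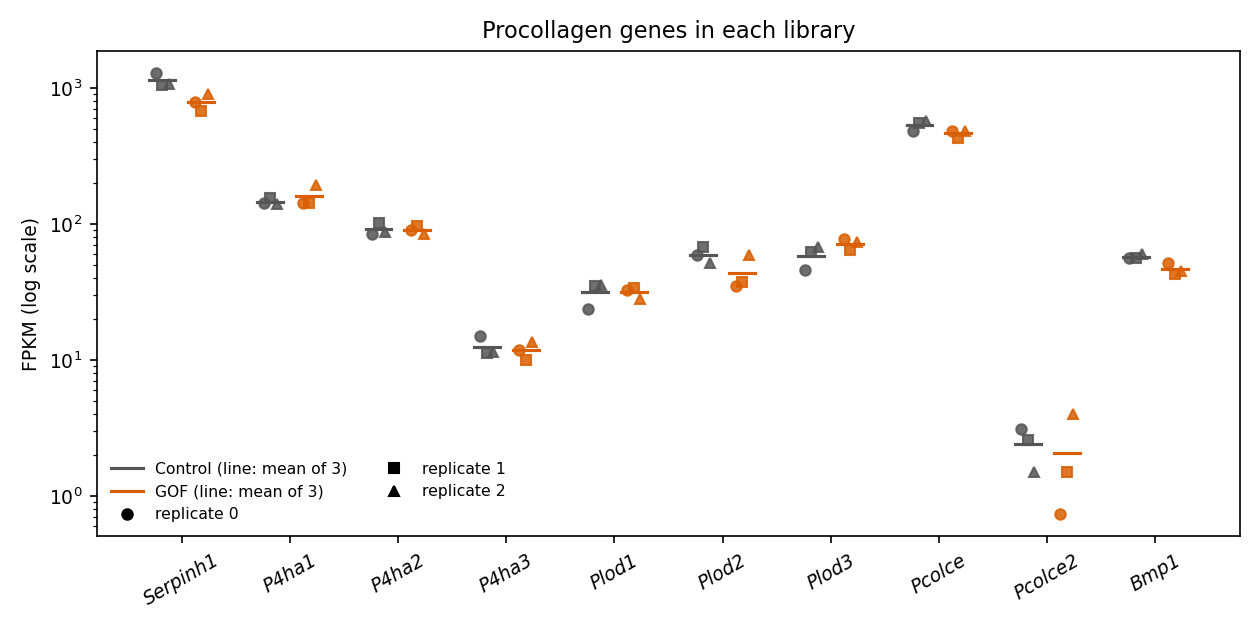
FPKM of each of the 10 genes in every library, on a log axis, with a symbol for each replicate number, grey for control and orange for GOF, and a line at the mean of each 3. Serpinh1 (678 to 902 in GOF, 1052 to 1295 in control) and Bmp1 are the genes whose groups do not overlap.

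**Figure D2:**
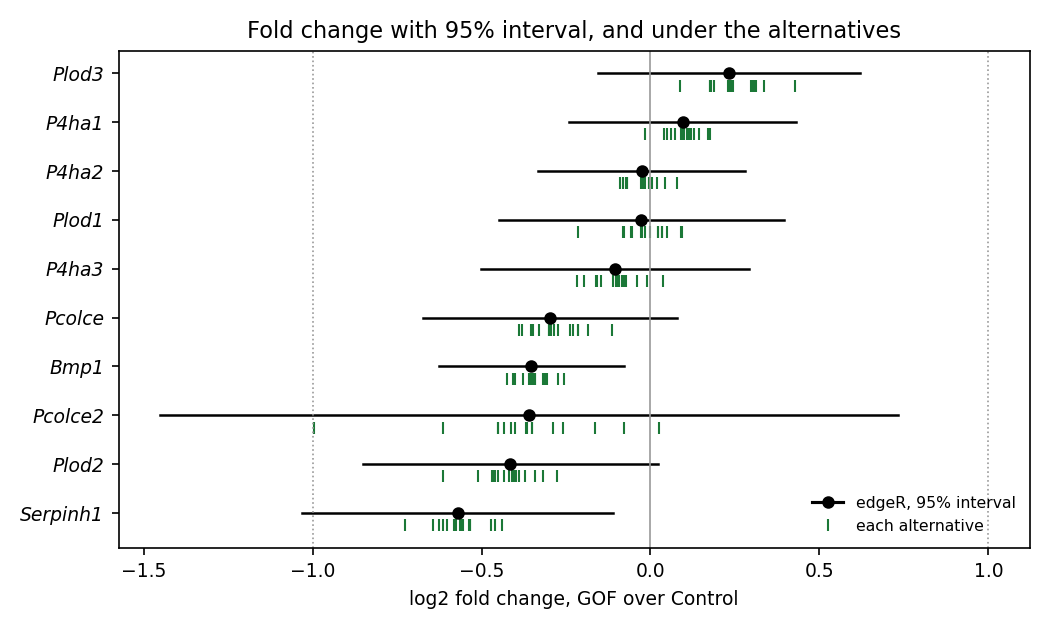
Log2 fold change of GOF over control for each gene, with the 95% interval from edgeR before adjustment, and a green tick for each alternative fit. Dotted lines mark a fold of 2. The intervals of Serpinh1 and Bmp1 lie below 0 and the other 8 include 0.

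The FPKM scale, which divides by transcript length, allows genes to be ranked. In controls the order was Serpinh1, Pcolce, P4ha1, P4ha2, Plod2, Plod3, Bmp1, Plod1, P4ha3 and Pcolce2, and only the neighbours Plod2 with Plod3 and Plod3 with Bmp1 overlapped in range. In GOF libraries Plod2 stood after Bmp1 in place of before Plod3, its range there overlapping that of Bmp1, and the other genes kept their order. The chaperone and the enhancer of the C-proteinase were therefore the most abundant of these transcripts in both groups, and 8 of the 10 exceeded 10 FPKM in every library.

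Serpinh1 (ENSMUSG00000070436.6, chromosome 7, 99345376 to 99353239, minus strand, GRCm38) encodes the collagen-specific chaperone. It had 1295, 1052 and 1075 FPKM in Control replicates 0, 1 and 2, and 789, 678 and 902 FPKM in GOF replicates 0, 1 and 2. Every GOF library lay below every control library, and Control replicate 0 was the highest of all. The means were 1141 ± 134 and 789 ± 112 FPKM (SD, n = 3 each), a fold of 0.673 with a 95% interval of 0.489 to 0.927 from edgeR. On the log2 scale this was -0.57 (standard error 0.20, unadjusted p = 0.0217, adjusted p = 0.0811, edgeR), and the exact permutation test on FPKM gave 0.1, two-sided, the smallest p that 3 against 3 libraries allow. The call depended on the fit. The adjusted p was 0.02 with DESeq2, 0.0442 with limma on log2(FPKM + 1) and 0.0465 with library totals in edgeR. It was 0.019 with voom and the animal as a correlation, but 0.119 in edgeR with the animal as a fixed block. That block takes the change only from the 2 animals with a culture in each group (log2 fold change -0.46), so it rests on fewer cultures. Without Control replicate 0 the log2 fold change was -0.47 (adjusted p = 0.116, edgeR), and without GOF replicate 2 the adjusted p was 0.045.

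The 250 bases before the start of Serpinh1 and of P4ha1 are shown from the RefSeq promoter table of GRCm38.p6. These are the windows of the most abundant of the 10 genes and of the most abundant hydroxylase gene among them. They were searched on both strands for CTTTGA, the core bound by TCF/LEF factors, the DNA-binding partners of β-catenin, and for ACGTG, the core bound by hypoxia-inducible factors, to which P4ha1 is a known responder. CTTTGA did not occur in either of the stretches shown. Capitals mark the match to ACGTG, which lies on the reverse strand and so reads CACGT here. The Serpinh1 window is chr7:99353240-99353489 (minus strand) and the P4ha1 window chr10:59323046-59323295 (plus strand).
Serpinh1: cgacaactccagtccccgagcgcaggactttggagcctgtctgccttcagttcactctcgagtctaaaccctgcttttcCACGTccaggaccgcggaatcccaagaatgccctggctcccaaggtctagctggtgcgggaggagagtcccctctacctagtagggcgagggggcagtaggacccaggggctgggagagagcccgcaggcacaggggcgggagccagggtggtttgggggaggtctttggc
P4ha1: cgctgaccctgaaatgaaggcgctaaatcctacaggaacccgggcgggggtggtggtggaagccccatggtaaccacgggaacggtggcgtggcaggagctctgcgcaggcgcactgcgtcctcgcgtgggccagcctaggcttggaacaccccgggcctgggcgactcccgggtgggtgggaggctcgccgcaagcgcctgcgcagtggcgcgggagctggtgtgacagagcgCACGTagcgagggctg
The match lies 171 to 167 bases before the start of Serpinh1 and 16 to 12 bases before that of P4ha1. Windows of 250 bases before to 50 after the start were found for 8 of the 10 genes. ACGTG occurred in 4 of them (P4ha1, P4ha2, Plod3 and Serpinh1) and in 19.6% of all 32851 windows of that table, and CTTTGA in 1 (Plod3) and in 16%. These are letter matches, not sites shown to be bound.

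Bmp1 (ENSMUSG00000022098.9, chromosome 14, 70474558 to 70520234, minus strand) encodes the procollagen C-proteinase, which also cuts other matrix precursors. Its FPKM was 56.1, 56.5 and 60.4 in Control replicates 0, 1 and 2, and 52.0, 42.9 and 44.8 in GOF replicates 0, 1 and 2. The controls lay close together and above every GOF library, with GOF replicate 0 the nearest to them. The means were 57.7 ± 2.41 and 46.6 ± 4.77 FPKM (SD, n = 3 each), a fold of 0.783 with a 95% interval of 0.648 to 0.946 (log2 fold change -0.35, standard error 0.12, adjusted p = 0.0715, edgeR). The unadjusted p was 0.0179 in edgeR, and the exact permutation test gave 0.1, two-sided. The adjusted p was 0.0389 with DESeq2, 0.0441 with upper-quartile factors in edgeR and 0.0338 with voom and the animal as a correlation. It was 0.223 in edgeR with the animal as a fixed block, which again rests on the 2 animals with a culture in each group (log2 fold change -0.26). With a library left out the adjusted p in edgeR ran from 0.0617 without Control replicate 0 to 0.219 without Control replicate 1.

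Pcolce (ENSMUSG00000029718.9, chromosome 5, 137605103 to 137613784, minus strand) encodes the secreted enhancer that binds the C-propeptide. It was at 484, 556 and 577 FPKM in Control replicates 0, 1 and 2, and at 480, 429 and 484 FPKM in the GOF replicates in the same order. Control replicate 0 was level with GOF replicate 2, so the groups met at one value. The fold was 0.814 with a 95% interval of 0.627 to 1.06 (539 ± 49.0 against 464 ± 30.9 FPKM, SD, n = 3 each, adjusted p = 0.237, edgeR). It shares 112 of its 3823 exon bases with Fbxo24 on the same strand, which averaged 0.365 FPKM. Gm36266 on the other strand also shares 112 of the exon bases of Pcolce, and it was not tested.

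Pcolce2 (ENSMUSG00000015354.8, chromosome 9, 95637601 to 95698096, plus strand), the related enhancer, was the least abundant of the 10. Its FPKM was 3.10, 2.59 and 1.51 in Control replicates 0, 1 and 2 and 0.732, 1.49 and 4.01 in GOF replicates 0, 1 and 2, so that the GOF libraries held both the lowest and the highest value. The fold of 0.780 had the widest 95% interval of the 10, 0.366 to 1.66 (adjusted p = 0.628, edgeR). Against -0.36 with all libraries, the log2 fold change was 0.03 without Control replicate 0, -0.08 without GOF replicate 0, -0.16 without GOF replicate 1, -0.61 without Control replicate 2 and -0.997 without GOF replicate 2.

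P4ha1 (ENSMUSG00000019916.9, chromosome 10, 59323296 to 59373304, plus strand) encodes the main catalytic subunit of prolyl 4-hydroxylase. It had 142, 156 and 140 FPKM in Control replicates 0, 1 and 2, and 142, 144 and 194 FPKM in GOF replicates 0, 1 and 2. GOF replicate 2 stood above the other 5, which lay close together. The fold was 1.07 with a 95% interval of 0.847 to 1.35 (146 ± 8.77 against 160 ± 29.4 FPKM, SD, n = 3 each, adjusted p = 0.678, edgeR).

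P4ha2 (ENSMUSG00000018906.9, chromosome 11, 54100095 to 54131665, plus strand) and P4ha3 (ENSMUSG00000051048.11, chromosome 7, 100285520 to 100319699, plus strand) encode the alternative catalytic subunits. P4ha2 had 84.0, 102 and 87.7 FPKM in Control replicates 0, 1 and 2 and 90.8, 96.8 and 84.4 FPKM in the GOF replicates, all within the control range. Its fold of 0.982 had the interval 0.795 to 1.21 (adjusted p = 0.914, edgeR). P4ha3 had 15.1, 11.2 and 11.4 FPKM in Control replicates 0, 1 and 2 and 11.8, 9.93 and 13.6 FPKM in GOF replicates 0, 1 and 2. The ranges overlapped, with Control replicate 0 the highest, and the fold of 0.929 had the interval 0.706 to 1.22 (adjusted p = 0.699, edgeR). P4hb, the protein disulfide isomerase that forms the β subunit of the enzyme, had 532 ± 21.6 and 533 ± 25.3 FPKM (SD, n = 3 each, adjusted p = 0.901, edgeR), more than the catalytic subunits together in either group (250 ± 16.9 and 262 ± 25.7 FPKM).

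Within the catalytic subunits P4ha1 supplied most of the summed FPKM, 58.5 ± 0.480% in control and 60.6 ± 5.03% in GOF libraries (SD, n = 3 each). The share was between 57.4% and 58.9% in 5 libraries and 66.4% in GOF replicate 2. P4ha2 supplied 36.5 ± 1.54% and 34.9 ± 5.24%, and P4ha3 5.05 ± 1.08% and 4.49 ± 0.462%. The exact permutation test, two-sided, gave 0.9, 0.9 and 0.5 for the 3 differences, and each changed sign when 1 library was left out, GOF replicate 2 for P4ha1 and P4ha2 (-0.79 and 1.44 percentage points without it) and Control replicate 0 for P4ha3 (0.0417 without it).

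Plod1 (ENSMUSG00000019055.10, chromosome 4, 147909753 to 147936767, minus strand) encodes the lysyl hydroxylase of the helical domain. It had 23.6, 35.2 and 35.8 FPKM in Control replicates 0, 1 and 2 and 32.8, 33.8 and 28.1 FPKM in GOF replicates 0, 1 and 2, with every GOF value inside the control range. The fold was 0.981 with a 95% interval of 0.732 to 1.31 (adjusted p = 0.934, edgeR). The lowest library was Control replicate 0, and without it the log2 fold change was -0.21 (adjusted p = 0.197, edgeR).

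Plod2 (ENSMUSG00000032374.9, chromosome 9, 92542223 to 92608428, plus strand) encodes the lysyl hydroxylase of the telopeptides, the chain ends through which collagen molecules are cross-linked. Its FPKM was 58.8, 67.2 and 51.8 in Control replicates 0, 1 and 2 and 35.2, 37.7 and 59.0 in GOF replicates 0, 1 and 2. GOF replicates 0 and 1 lay below every control, while GOF replicate 2 lay among the controls. The fold was 0.750 with a 95% interval of 0.554 to 1.01 (59.3 ± 7.70 against 44.0 ± 13.1 FPKM, SD, n = 3 each, adjusted p = 0.161, edgeR). Without GOF replicate 2 the log2 fold change went from -0.42 to -0.61 with an adjusted p of 0.044 (edgeR), so 1 library decided on which side of the threshold it fell. Of the 5392 exon bases of Plod2, 346 lie opposite Gm38391 on the other strand. Gm38391 was not tested, and the strand setting of the counting is not given in the sources used here.

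Plod3 (ENSMUSG00000004846.5, chromosome 5, 136987019 to 136996648, plus strand) encodes a lysyl hydroxylase that also adds the sugars to hydroxylysine. It had 46.0, 61.8 and 68.2 FPKM in Control replicates 0, 1 and 2 and 77.1, 64.5 and 73.4 FPKM in GOF replicates 0, 1 and 2. GOF replicate 1 lay inside the control range and the others above it. The fold was 1.17 with a 95% interval of 0.898 to 1.54 (58.7 ± 11.4 against 71.7 ± 6.48 FPKM, SD, n = 3 each, adjusted p = 0.364, edgeR). Its level is uncertain, because 529 of its 4519 exon bases lie opposite Znhit1 on the other strand and the strand setting of the counting is not given in the sources used here. Znhit1 itself had 31.0 ± 9.13 and 25.5 ± 2.95 FPKM (SD, n = 3 each, adjusted p = 0.357, edgeR). Mir702 shares 9 of the exon bases of Plod3 on the same strand, and it was not tested.

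The Plod genes summed to 149 ± 18.7 FPKM in control and 147 ± 12.4 FPKM in GOF libraries (SD, n = 3 each, exact permutation test, two-sided p = 0.9). Plod3 supplied 35.8%, 37.6% and 43.8% in Control replicates 0, 1 and 2 and 53.1%, 47.4% and 45.7% in GOF replicates 0, 1 and 2. Every GOF library was above every control library, by 9.69 percentage points in the mean (39.1 ± 4.16% against 48.8 ± 3.89%, SD, n = 3 each, two-sided p = 0.1 by the exact permutation test, which cannot go lower). The difference stayed between 7.49 and 12 percentage points with each library left out in turn. As the groups did not overlap, its sign could not change in this way. The overlap with Znhit1 makes the level of Plod3 uncertain, and so also the shares within the Plod genes. Plod2 supplied 45.8%, 40.9% and 33.3% in the controls and 24.3%, 27.7% and 36.8% in the GOF replicates, and GOF replicate 2 lay inside the control range (40.0 ± 6.32% against 29.6 ± 6.45%, exact permutation test, two-sided p = 0.2, n = 3 each). The share of Plod1 was 20.9 ± 2.34% and 21.7 ± 3.76% (p = 0.8 by the same exact test). The most abundant Plod gene was Plod3 in every GOF library and in Control replicate 2, and Plod2 in Control replicates 0 and 1.

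**Figure D3:**
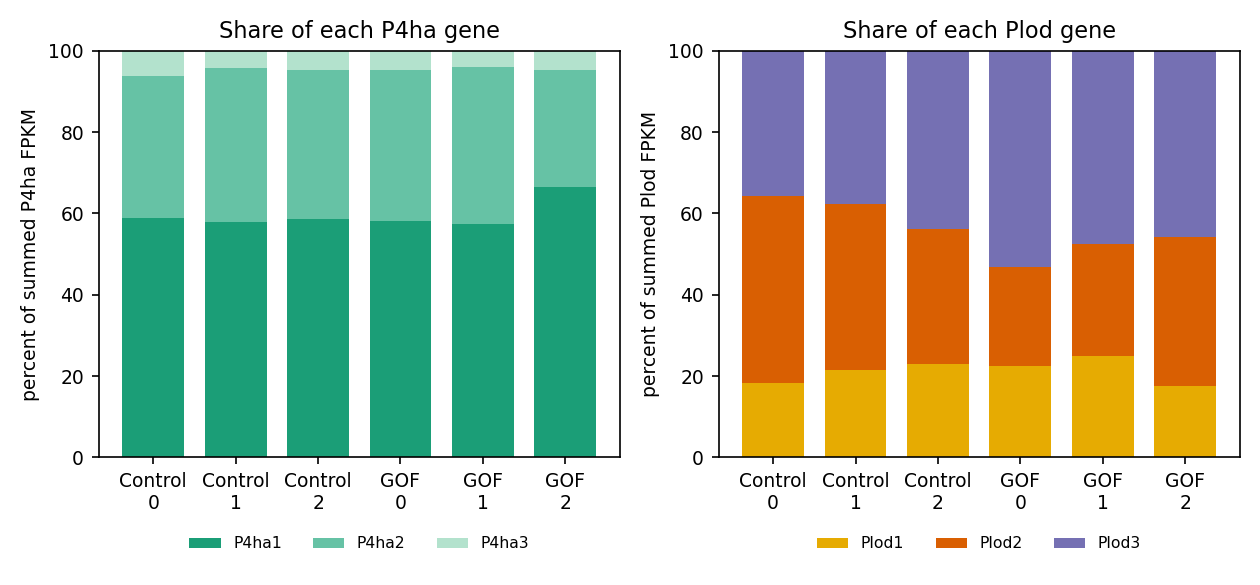
Stacked bars, one per library, of the percentage of the summed FPKM of the P4ha genes (left) and of the Plod genes (right) that each gene supplies. Plod3 is at 35.8% to 43.8% in control and 45.7% to 53.1% in GOF libraries, and the P4ha shares overlap. The level of Plod3 is uncertain because of its overlap with Znhit1.

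Both animals that gave a culture to each group allow a comparison within the animal, given first for that of Control replicate 0, as log2 ratios of FPKM with no test. Serpinh1 was lower in the GOF culture of both, by -0.52 and -0.45, and so was Bmp1, by -0.32 and -0.22. Plod3 was higher in both, by 0.67 and 0.18, and Plod2 differed by 0.01 in the animal of Control replicate 0 and by -0.56 in that of Control replicate 2. In the first animal P4ha1, Plod1, Plod3 and Pcolce2 were higher in GOF by 0.25 to 0.67, while P4ha2, Plod2 and Pcolce differed by at most 0.01. The second animal had 0.02 for P4ha1, 0.05 for P4ha2, -0.13 for Plod1 and -0.27 for Pcolce. P4ha3 differed by -0.14 and 0.06. The control of the first animal, Control replicate 0, is the one that stood somewhat apart from the other controls. Pcolce2 had the widest spread between the animals, with 0.37 and -1.04.

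**Figure D4:**
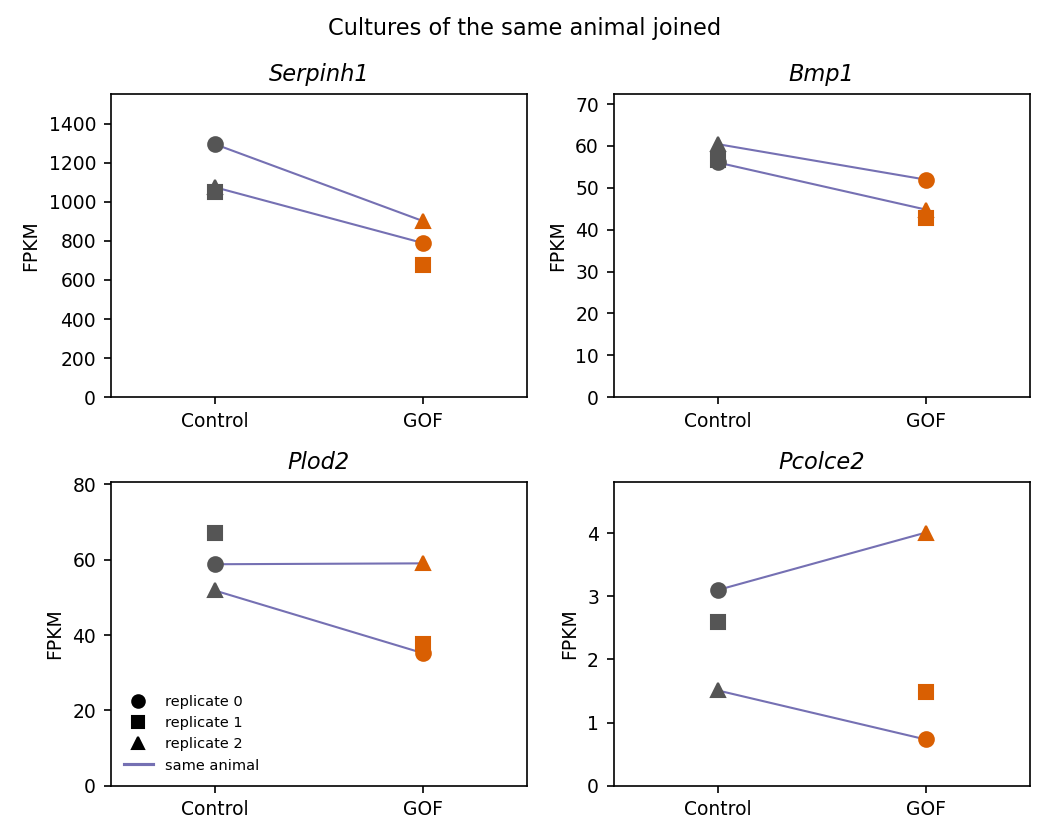
FPKM of Serpinh1, Bmp1, Plod2 and Pcolce2 in control and GOF libraries, each on an axis from 0, with a symbol for each replicate number and a line joining the cultures of the same animal. Both lines slope down for Serpinh1 and Bmp1, while those of Plod2 and Pcolce2 differ between the animals.

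Of 39 further genes of the pathway, 35 were tested, 1 was higher and 3 were lower in GOF at an adjusted p under 0.05 (edgeR), beside 11.1% higher and 10.2% lower of all genes tested, and their median log2 fold change was 0.02. These 4 were P3h2, P3h3, Fkbp7 and Adamts2, and their FPKM did not overlap between groups. The same held for some pathway genes that did not pass and for 39.5% of all genes tested. Among the prolyl 3-hydroxylase complexes, which modify a few prolines of each chain, P3h2 rose and P3h3 fell, and the other 4 of 6 did not pass. P3h2 was at 1.6, 1.73 and 1.92 FPKM in Control replicates 0, 1 and 2 and at 6.79, 5.07 and 4.10 FPKM in the GOF replicates (log2 fold change 1.56, standard error 0.20, adjusted p = 0.0023, edgeR). P3h3, whose product works with lysyl hydroxylase 1, went from 42.1 ± 2.22 to 27.8 ± 1.66 FPKM (SD, n = 3 each, log2 fold change -0.62, adjusted p = 0.0109, edgeR). Without Control replicate 1, and without GOF replicate 0, this list had 1 call in place of 2 and the whole pathway 2 in place of 4. With the animal as a correlation in voom, the list had 3 and the whole pathway 6.

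Among the propeptide proteinases other than Bmp1, Adamts2, the proteinase that removes the N-propeptide, fell, and the other 4 tested of 8 did not pass. It was at 23.8, 32.1 and 31.6 FPKM in Control replicates 0, 1 and 2 and at 13.3, 10.7 and 9.14 FPKM in the GOF replicates, or -1.44 on the log2 scale (standard error 0.18, adjusted p = 0.00215, edgeR). This gene and P3h2 were the ones of the pathway that also passed a fold change of 2. Of 12 genes for folding in the endoplasmic reticulum, Fkbp7, a prolyl isomerase, fell from 92.4 ± 16.3 to 60.1 ± 4.22 FPKM (SD, n = 3 each, log2 fold change -0.62, adjusted p = 0.0296, edgeR). Without Control replicate 1, or without any 1 of the GOF replicates, its adjusted p was between 0.0522 and 0.114. None of the 9 genes for export from the endoplasmic reticulum passed in edgeR, DESeq2 or limma with all libraries, and none had an unadjusted p under 0.05 in edgeR, although 1 passed in edgeR without Control replicate 0. The nearest was Sec24d, a COPII coat subunit (log2 fold change -0.24, adjusted p = 0.205). None of 3 tested genes among the other modifying enzymes passed in any of these tools or had an unadjusted p under 0.05 in edgeR. The nearest was P4htm, a transmembrane prolyl hydroxylase (log2 fold change 0.06, adjusted p = 0.865, edgeR). It was listed and counted with the pathway here, although procollagen is not an established substrate of its product.

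**Figure D5:**
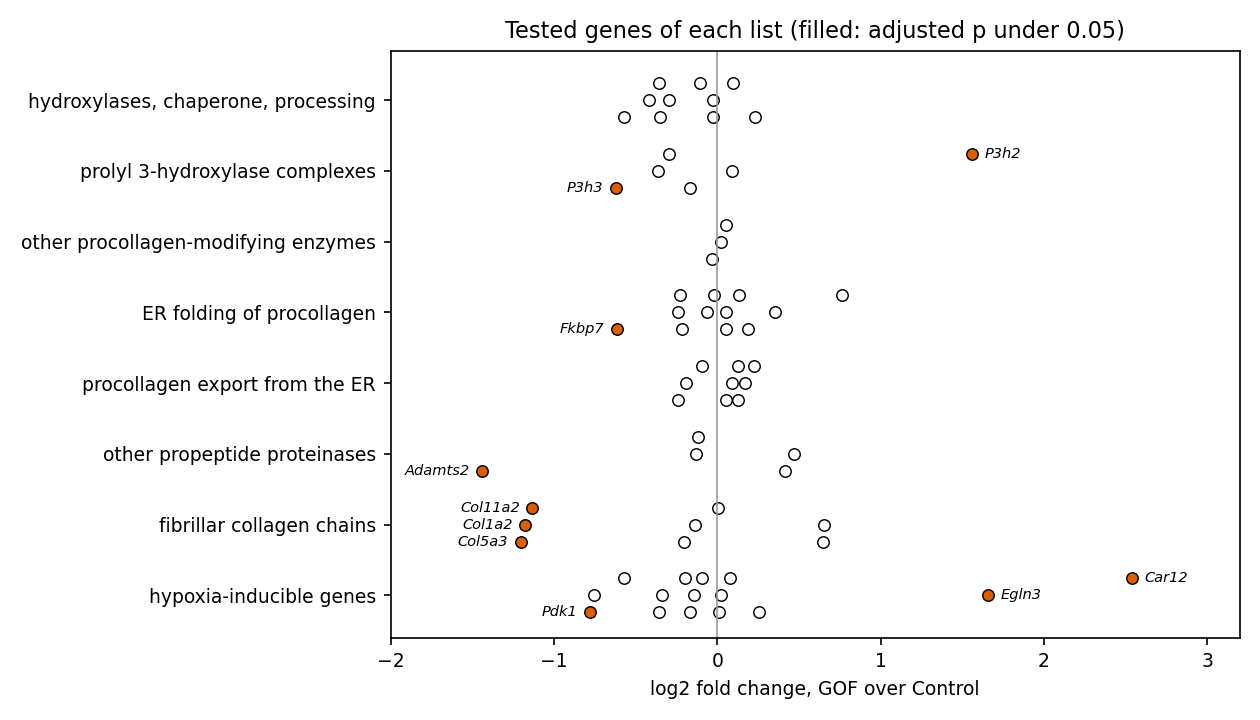
Log2 fold change of GOF over control for the tested genes of each list, one point per gene, filled and named where the adjusted p from edgeR is under 0.05. No gene of the top row, the hydroxylases, chaperone and processing genes, is filled.

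The clients of these enzymes, the fibrillar collagen chains, were 11 listed genes of which 8 were tested, with none higher and, beside 10.2% of all genes tested, 3 lower (Col1a2, Col5a3 and Col11a2, the last at under 1 FPKM in both groups in the mean). Col3a1 and Col5a2 were left out because their estimates failed and they are listed at 0 in the 3 controls. In GOF libraries they are listed at 794 ± 137 and 839 ± 141 FPKM (SD, n = 3 each). Col1a2, the α2 chain of type I collagen, had 585, 954 and 1061 FPKM in Control replicates 0, 1 and 2 and 540, 300 and 320 FPKM in the GOF replicates (log2 fold change -1.18, standard error 0.32, adjusted p = 0.0375, edgeR). Control replicate 0 was near GOF replicate 0, and the adjusted p reached 0.116 in 1 of the 5 alternatives in which the call was lost. Col1a1, the α1 chain, had 247, 115 and 135 FPKM in the controls and 248, 124 and 128 FPKM in the GOF replicates, with the ranges almost the same (adjusted p = 0.995, edgeR). Its values were lower per length than those of Col1a2 in all 6 libraries. Col5a3 fell from 3.16 ± 0.665 to 1.38 ± 0.364 FPKM (SD, n = 3 each, adjusted p = 0.0213, edgeR). With a library left out, 0 to 3 chains passed, 0 without Control replicate 1 and 1 without Control replicate 2 or GOF replicate 0, and 4 passed with the animal as a fixed block or as a correlation.

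Set against the summed FPKM of Col1a1 and Col1a2, Serpinh1 stood at 1.56, 0.984 and 0.899 in Control replicates 0, 1 and 2 and at 1.0, 1.6 and 2.01 in GOF replicates 0, 1 and 2. The groups overlapped, with means of 1.15 ± 0.358 and 1.54 ± 0.508 (SD, n = 3 each, exact permutation test, two-sided p = 0.2, where 0.1 is the smallest possible). The difference in the means was 0.391, and the ratio was higher in the GOF culture of both animals that gave one to each group. Col3a1 and Col5a2, whose estimates failed, are not part of this ratio. It is therefore not a measure of the chaperone per fibrillar chain as a whole.

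Hypoxia-inducible genes were set beside the list because P4ha1, P4ha2 and Plod2 are known to respond to low oxygen. Of 15 tested, 2 were higher and 1 lower in GOF at an adjusted p under 0.05 (edgeR). Beside 21.2% of all genes tested in either direction (11.1% higher and 10.2% lower), the 3 together were not above the background. Its median log2 fold change was -0.14. Egln3, an oxygen sensor, rose from 1.62 ± 0.254 to 5.17 ± 1.23 FPKM (SD, n = 3 each, log2 fold change 1.66, adjusted p = 0.0028, edgeR). Car12, a carbonic anhydrase, rose from 0.0904 ± 0.0215 to 0.506 ± 0.231 FPKM (SD, n = 3 each, adjusted p = 0.00919, edgeR). Pdk1, a kinase that holds back pyruvate dehydrogenase, fell from 19.0 ± 2.66 to 10.7 ± 1.65 FPKM (SD, n = 3 each, log2 fold change -0.78, adjusted p = 0.0194, edgeR). The other 12 did not pass in edgeR, and the count was 4 with DESeq2 and 5 with voom and the animal as a correlation.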

How the data were processed

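RNA was sequenced from 3 control and 3 GOF cultures as stranded, 100 bp libraries. TopHat (mapping to mm10) and Cuffdiff are named by the authors, with versions not given in the sources used here. The expected counts used are the fragments that Cuffdiff assigned per gene and library before scaling, as deposited. FPKM, also deposited, is Cuffdiff's value per transcript length, scaled across libraries. The lncRNA table and another 2 per-library columns were left unused. In all, 32 genes with a failed estimate were left out, 23 of them marked as having too many fragments.

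Expected counts, of which 4.95% were not whole, were rounded and tested in R 4.3.3 with edgeR 4.0.16 (TMM, filterByExpr, quasi-likelihood test, Benjamini-Hochberg adjustment over 15462 genes). Thresholds were an adjusted p under 0.05, and the same with a fold change over 2. Standard errors were derived from edgeR's log2 fold change and F statistic. The 95% intervals were computed from them with a t quantile. Single values were compared with an exact permutation test. P-values measure the spread between 3 cultures per group. The main fit and the exact tests treat all cultures as independent, although 2 animals gave a culture to each group. The fixed block by animal compares the groups within those 2 animals only. Alternatives used DESeq2 1.42.0, limma 3.58.1 on log2(FPKM + 1) and log2(FPKM + 0.1), limma's voom with the animal as a correlation, edgeR with library totals, with upper-quartile factors, without the filter, with a minimum FPKM of 1 in 3 libraries, and with blocks by animal or label number, and each library left out. Tables were read with data.table (version 1.17.8), and Python 3.11.15 with pandas 2.3.3 and matplotlib 3.10.9 read sequences and drew figures. Names came from GENCODE M21 on GRCm38 (97.9% of identifiers matched). The scripts were tested on simulated data.

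The genes and lists were chosen with earlier results of these data known. Genes named outside them are Axin2, Ctnnb1, those that share exon bases with one of the 10, and those most alike in profile. Col1a1 and Col1a2, which belong to the list of fibrillar chains, were to be named in any case. Of each list, up to 3 genes that passed both thresholds are named, by the smallest adjusted p. Where none passed both, the gene with the smallest adjusted p is named. The 3 genes most alike in profile are named for Serpinh1 and Bmp1, and the single nearest for each of the others. P4hb, P3h3, Pdk1 and single marker genes were named after their values were seen. The labels pair cultures by animal, and deviations from the group means correlated at 0.408 and 0.46 across genes within the 2 pairs.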

Additional observations from a re-analysis of the deposited data

How the results depend on the processing

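Of 16 alternatives, 10 left the number of the 10 genes with an adjusted p under 0.05 at 0. It was 1 with library totals and with limma on log2(FPKM + 1) (Serpinh1), 1 with upper-quartile factors (Bmp1), 2 with DESeq2 and with the animal as a correlation (both), and 0 to 2 with each library left out, the 2 being Serpinh1 and Plod2 without GOF replicate 2. For Serpinh1 the log2 fold change stayed between -0.73 and -0.44 and that of Bmp1 between -0.42 and -0.26.

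Of all genes, 1906 passed both thresholds, 855 with limma on log2(FPKM + 1), and 1311 to 1961 with a library left out. At an adjusted p alone 3281 passed, against 1695 with a block by label number, 5126 with the animal as a correlation block, and 1732 to 3726 with a library left out (fewest without Control replicate 1 or 2 or GOF replicate 0). The counts higher and lower, 1034 and 872, were 468 and 387 with limma on log2(FPKM + 1), 639 higher with an FPKM of at least 1, and 569 lower without GOF replicate 0. Pathway genes past the adjusted p, 4, were 4 with the animal as a fixed block, 6 with it as a correlation, 2 with the label-number block and 2 to 5 with a library left out. Of the lists, hypoxia-inducible genes went from 3 to 5, the prolyl 3-hydroxylase complexes from 2 to 3 and the folding genes from 1 to 2 with the animal as a correlation, while fibrillar chains went from 3 to 4 with either animal block and to 1 with the label-number block. Blocking by animal changed no other call of the 10 genes. Label numbers pair no shared animal, and same-numbered cultures correlated at -0.41, 0.05 and -0.44.

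With a library left out, the GOF minus control difference in share ran from -0.79 to 3.73 percentage points for P4ha1, -3.43 to 1.44 for P4ha2, -1.01 to 0.0417 for P4ha3 (reversed without Control replicate 0), -0.872 to 2.80 for Plod1, -14.0 to -7.52 for Plod2 and 7.49 to 12 for Plod3. That of Plod1 was -0.543 without Control replicate 0 and -0.872 without GOF replicate 1. The difference in the ratio of Serpinh1 to Col1a1 plus Col1a2 ran from 0.154 to 0.659. The cause of these changes was not tested. Pcolce2, at 160 fragments or more per library, had the lowest depth of the 10.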

Other observations

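Genes with the profile over the 6 libraries most like that of each of the 10 were sought among 11135 protein-coding genes, by the mean absolute difference of log2(FPKM + 1) after centring each gene on its own mean. Over these 6 libraries the nearest to Serpinh1 were Npepl1 (0.0421), Egln2 (0.0477) and Coq8b (0.0481), and the nearest to Bmp1 were Eefsec (0.0276), Borcs5 (0.0282) and Armc5 (0.0286). The single nearest gene was Fam118b for P4ha1 (0.0187), Tmem246 for P4ha2 (0.0225), Sh3gl1 for P4ha3 (0.0257), Ythdc1 for Plod1 (0.0294), Tyw3 for Plod2 (0.0554), Myo9b for Plod3 (0.0270), Vps8 for Pcolce (0.0254) and Ngfr for Pcolce2 (0.165). The 10 genes themselves were left out of this search.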
